A study of Mus musculus with 18 samples.

Results

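The genes described here are 37 genes known for their expression in endothelial cells of the liver, out of 21887 protein-coding genes of the RefSeq annotation. They were chosen by name, by a rule that uses no measured value, although the list was drawn up with earlier results of these data known. Each was measured over a window of its RefSeq span with 5 kb on each side, in every one of 18 peak lists from mouse liver. A peak list holds the stretches of the genome where a ChIP-seq library is enriched for a histone mark or a bound protein. The mice were C57BL/6, 8 weeks old, and carried CTCF fl/fl alleles in both groups. Control mice (WT) were CTCF fl/fl Albcre- and knockout mice (KO) were CTCF fl/fl Albcre+. The albumin promoter drives this Cre in hepatocytes, so endothelial cells are not the cell type in which it is designed to act. The libraries were 3 WT and 3 KO for H3K27ac, 1 and 1 for H3K4me3, 1 and 1 for H3K27me3, and 2 and 2 each for PPARg and CTCF. All CTCF libraries, and PPARg libraries WT 2, KO 7 and KO 8, came from fasted males and were made by tagmentation. The remaining libraries, PPARg WT 4 among them, were ligation libraries from mice of unstated sex, and the growth text filed with them describes neural stem cells although the tissue is labelled liver.

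Sinusoidal endothelial cells line the capillaries of the liver. They lack a continuous basement membrane, are perforated by fenestrae, clear waste molecules through scavenger receptors, and send Wnt, R-spondin and BMP signals to the hepatocytes beside them. Their identity is kept by ETS factors such as Erg and Fli1 and by the SOXF factors Sox7, Sox17 and Sox18. H3K27ac marks active promoters and enhancers, H3K4me3 marks active promoters, and H3K27me3 marks regions under Polycomb repression. CTCF is the main protein of insulators, and PPARg controls genes of lipid storage. All of these were measured in whole liver, where a higher share of endothelial cells and more marked chromatin per cell cannot be told apart.

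The H3K27ac lists covered 84.8, 91.5 and 78.2 Mb in WT 1, WT 2 and WT 4, and 79.5, 91.2 and 125.7 Mb in KO 2, KO 3 and KO 4. KO 4 thus stood apart, and H3K27ac coverage of a window was divided within each library by that library's covered length relative to the mean of the 6. Values scaled in this way are called scaled coverage, in percent of the window, and can exceed 100. H3K4me3 covered 21.7 Mb in WT 2 and 19.1 Mb in KO 4, and H3K27me3 4.01 Mb in WT156 and 6.25 Mb in KO150. PPARg covered 6.90 to 9.0 Mb in WT and 20.8 to 21.1 Mb in KO, and CTCF 14.4 to 19.6 Mb in WT and 11.8 to 13.9 Mb in KO. Of 30026 CTCF sites in the genome, 9.87% were called in both WT and neither KO library and 0.167% in both KO and neither WT library. Read depth is not recorded in peak lists and is unknown here.

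RefSeq promoter windows (build GRCm38.p6, 250 bases before to 50 bases after a start site) were at hand for 19 members, in 23 windows. The 6 stretches below are shown because H3K27ac covered their start site in all 6 libraries and because they hold letters bound by the endothelial ETS, SOX or GATA factors. Each is the 250 bases before the start site, 5′ to 3′ on the strand of the gene, and the capitals mark matches on either strand. The letters searched were CAGGAAG for ETS factors. They were ACAATG for SOX factors and, for GATA factors, the letters AGATAAG.

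Egfl7, upstream promoter (chr2:26580833-26581082, plus strand): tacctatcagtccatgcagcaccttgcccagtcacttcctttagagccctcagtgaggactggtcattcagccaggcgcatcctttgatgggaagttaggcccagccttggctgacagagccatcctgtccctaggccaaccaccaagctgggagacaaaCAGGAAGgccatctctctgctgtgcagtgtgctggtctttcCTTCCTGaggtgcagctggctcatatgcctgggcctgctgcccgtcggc
Egfl7, middle promoter (chr2:26583615-26583864, plus strand): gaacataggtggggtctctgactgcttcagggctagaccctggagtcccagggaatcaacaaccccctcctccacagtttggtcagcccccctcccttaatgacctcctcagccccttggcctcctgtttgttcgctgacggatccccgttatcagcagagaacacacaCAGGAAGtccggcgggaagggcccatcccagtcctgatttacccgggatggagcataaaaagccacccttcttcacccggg
Clec4g (chr8:3720652-3720901, minus strand): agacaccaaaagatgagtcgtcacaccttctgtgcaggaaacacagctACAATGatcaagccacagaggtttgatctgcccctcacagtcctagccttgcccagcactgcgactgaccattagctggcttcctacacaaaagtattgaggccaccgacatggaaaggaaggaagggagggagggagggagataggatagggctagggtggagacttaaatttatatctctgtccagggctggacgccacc
Robo4 (chr9:37401722-37401971, plus strand): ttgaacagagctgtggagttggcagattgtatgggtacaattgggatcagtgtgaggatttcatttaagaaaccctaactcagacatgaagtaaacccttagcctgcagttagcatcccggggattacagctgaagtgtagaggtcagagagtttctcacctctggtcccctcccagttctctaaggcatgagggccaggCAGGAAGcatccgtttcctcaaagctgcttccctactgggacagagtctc
Stab1 (chr14:31168642-31168891, minus strand): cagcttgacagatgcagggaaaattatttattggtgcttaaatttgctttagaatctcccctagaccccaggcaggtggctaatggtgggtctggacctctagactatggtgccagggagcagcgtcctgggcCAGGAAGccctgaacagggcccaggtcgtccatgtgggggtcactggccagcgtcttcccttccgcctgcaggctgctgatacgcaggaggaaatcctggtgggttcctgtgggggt
Erg, internal promoter (chr16:95459349-95459598, minus strand): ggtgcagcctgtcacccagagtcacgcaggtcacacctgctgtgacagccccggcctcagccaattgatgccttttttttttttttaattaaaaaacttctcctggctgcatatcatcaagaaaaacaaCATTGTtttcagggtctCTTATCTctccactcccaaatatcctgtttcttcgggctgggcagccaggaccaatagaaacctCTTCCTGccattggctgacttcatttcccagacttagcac

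Egfl7 carried 2 ETS matches in its upstream promoter, 90 and 49 bases before the start site, and 1 in its middle promoter, 81 bases before. The Erg stretch, on a start site inside the gene, held an ETS match 40 bases before the start site, a GATA match at 104 and a SOX match at 121. Robo4 and Stab1 each held 1 ETS match, and Clec4g held 1 SOX match. Over the full 300-base windows CAGGAAG occurred in 8 of 23 member windows (34.8%) and in 13.3% of all 32851 promoter windows. The other ETS form searched, CCGGAAG, occurred in none of the 23 and in 8.86% of all windows. AGATAAG was in 8.7% against 3.04%, ACAATG in 8.7% against 12.6%, the KLF letters CCACCC in 47.8% against 31.5%, and the CTCF core CNAGNNGGC in 13.0% against 20.8%. Letters were matched on both strands, and each motif was counted on its own even where it overlapped another.

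H3K27ac marked the endothelial genes in every library of both genotypes. Peaks were present at 36 of the 37 members in all 6 libraries, and Cd34, which encodes a surface sialomucin of vascular and progenitor cells, had none in any. By library, 60% to 67% of all protein-coding genes had a peak. The mean scaled coverage over the 37 windows was 27.8%, 29.7% and 29.9% in WT 1, WT 2 and WT 4, and 28.5%, 29.0% and 27.7% in KO 2, KO 3 and KO 4. The 2 genotypes overlapped in this mean. Over all genes it lay between 9.35% and 10.5% in every library.

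**Figure D1:**
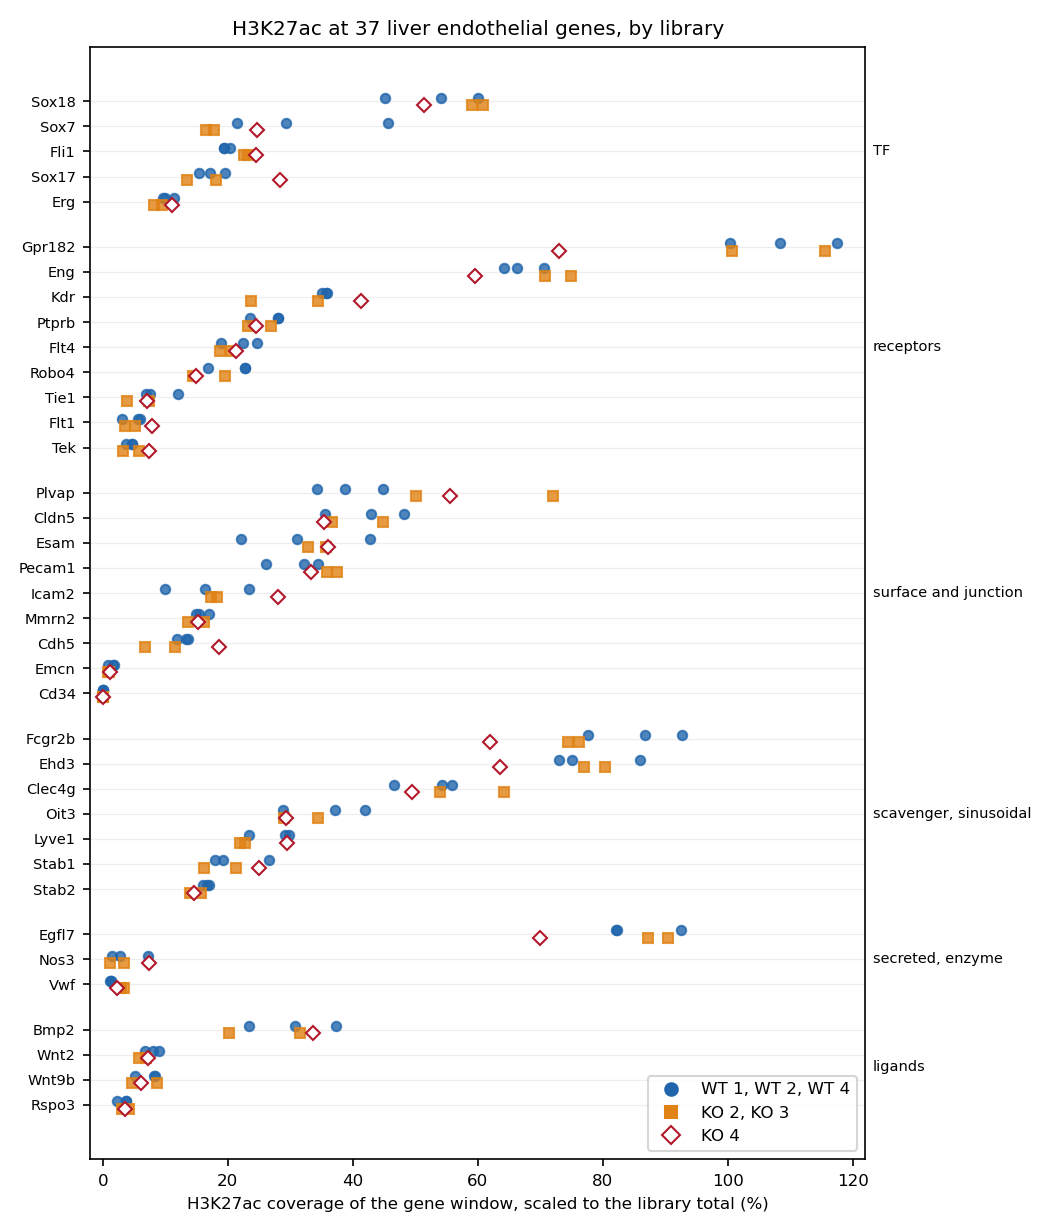
Scaled H3K27ac coverage (x axis, percent of the gene window) of each of 37 members (rows, grouped by role, TF meaning transcription factors), with 1 point per library: circles WT, squares KO 2 and KO 3, open diamonds KO 4. The circles and the KO points separate in 5 rows (Plvap, Fli1, Vwf, Fcgr2b and Stab2), and Cd34 sits at 0 in every library.

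Few members separated the genotypes. After scaling, 3 of the 36 members with peaks (8.33%) had all 3 KO values above all 3 WT values, against 7.46% of all 14888 genes with H3K27ac. In the other direction, 2 of the 36 (5.56%) had all 3 KO values below the WT values, against 8.67% of all genes. Both shares lie near those of all genes. No gene passed the Benjamini-Hochberg adjusted threshold in limma, with 0% of the 14888 called higher and 0% called lower. At an unadjusted p under 0.05, 701 genes were higher and 892 lower, and 3 and 2 members. The median difference (KO minus WT) was -0.77 percentage points over the members and -0.05 over all genes. Leaving out a library can only keep or raise these counts, since fewer values then have to separate. Without KO 4, 5 members were higher (13.9%, against 11.9% of all genes) and 7 lower (19.4%, against 11.9%). Without WT 1, 3 were higher (8.33% against 12.4%) and 7 lower (19.4% against 13.6%). Without WT 2, 5 were higher (13.9% against 11%) and 4 lower (11.1% against 13.6%). Without scaling, 4 members were higher and 0 lower, where H3K27ac covered 1.16 times as much of the genome in KO. The unscaled shares of all genes were not counted.

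Plvap encodes the protein that forms the diaphragms of endothelial fenestrae and vesicles. Its scaled coverage was 38.7%, 34.2% and 44.9% in WT 1, WT 2 and WT 4, and 50.1%, 72.1% and 55.6% in KO 2, KO 3 and KO 4. Every KO library lay above every WT library, with KO 3 the highest. The difference of 19.99 percentage points (SE 6.43) had an adjusted p of 0.395 in limma (n = 3 and 3). The window (chr8, with Gtpbp3 also inside it) held 2 regions called in all 6 libraries and another between them, 1297 bp wide and inside the gene, called in KO 3 and KO 4 alone. The fold enrichment of its strongest peak was 3.45, 3.22 and 3.39 in WT against 3.56, 3.73 and 3.91 in KO, again without overlap. Those peaks lay in the region chr8:71494916-71501412. The other region called in all 6 libraries, which holds the H3K4me3 peaks of Plvap, did not separate the genotypes. Its folds were 3.27, 2.86 and 3.11 in WT against 2.98, 3.12 and 2.80 in KO.

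Fli1, an ETS factor of endothelial and blood cells, had 20.3%, 19.4% and 19.4% in WT against 22.6%, 23.3% and 24.5% in KO 2, KO 3 and KO 4. The spread within each genotype was small, and the difference was 3.79 points (SE 0.71, limma adjusted p = 0.253). Vwf encodes the platelet-binding von Willebrand factor, which is low in sinusoids and high in larger vessels. Its coverage was 1.09%, 1.25% and 1.34% in WT against 3.35%, 2.90% and 2.20% in KO, a difference of 1.59 points (SE 0.52, limma adjusted p = 0.404). These low percentages come from 2 regions called in all 6 libraries, and in KO 4 also from another of 326 bp, in a window of 143732 bp.

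The members lower in KO belong to the scavenger and sinusoidal group. Fcgr2b, the inhibitory Fc receptor by which sinusoidal cells take up immune complexes, had 77.6%, 86.8% and 92.6% in WT against 76.3%, 74.4% and 62.0% in KO 2, KO 3 and KO 4. The lowest WT and highest KO values are close, and the difference was -14.8 points (SE 5.52, limma adjusted p = 0.444). With every list shortened to the same covered length, it was -0.91. Without scaling it was -4.09 and the genotypes overlapped. Stab2, a hyaluronan and scavenger receptor, had 16.7%, 16.9% and 16.0% in WT against 15.7%, 13.9% and 14.6% in KO, a difference of -1.79 points (SE 0.68, limma adjusted p = 0.455). Without scaling its sign turned, to 0.51. The other 5 genes of this group (Ehd3, Clec4g, Oit3, Lyve1 and Stab1) overlapped between genotypes, and the group's median difference was -2.73 points.

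Members of several roles had H3K27ac over a large part of their window. Gpr182, a scavenger receptor for chemokines, had its whole window (100%) covered in all 6 libraries, so that its scaled value follows the library total alone. Egfl7, a secreted regulator of vessel formation, had 92.5%, 82.2% and 82.2% in WT against 90.4%, 87.2% and 70.0% in KO 2, KO 3 and KO 4. The scaled KO 4 value is the lowest of the 6 and the genotypes overlap. Before scaling, the KO 4 value of Egfl7 was the highest of the 6. Ehd3, a protein of membrane recycling that marks sinusoidal over other liver endothelium, lay between 63.5% and 85.9%. Eng, a TGF-beta co-receptor, lay between 59.5% and 75.0%, and Sox18 between 45.2% and 60.8%. At the other end, Emcn stayed between 0.82% and 1.78%. Percentages depend on window length, so the order of genes is not an order of signal. Some windows also hold part of another gene, such as Zbtb39 at Gpr182, Agpat2 at Egfl7 and Fpgs at Eng. Coverage there need not belong to the endothelial gene.

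The effect of KO 4 showed in the unscaled values. KO 4 held the highest coverage of the 6 libraries in 29 of the 36 members (80.6%) before scaling, and in 8 (22.2%) after it. Over all genes these shares were 68.7% and 21%. Kdr, the main VEGF receptor, had 35.1%, 35.9% and 35.6% scaled in WT and 23.7%, 34.4% and 41.3% in KO 2, KO 3 and KO 4. KO 2 was thus the lowest and KO 4 the highest of the 6. Sox17 had 17.2%, 15.4% and 19.5% in WT against 18.2%, 13.5% and 28.4% in KO, where KO 4 stood apart from the other 5. Sox7 had 29.3%, 21.4% and 45.6% in WT against 16.5%, 17.8% and 24.6% in KO. Its genotypes overlapped only in that KO 4 lay above WT 2.

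Single H3K27ac regions gave a similar count. Of the merged regions in the member windows, 69 (42.1%) were called in all 6 libraries, against 39.6% over the genome. Eng held the 1 region called in all 3 KO and no WT library (0.61% of member regions), at chr2:32678126-32680434 (mm10), inside the gene. Its fold enrichment was 2.95, 3.14 and 2.37 in KO 2, KO 3 and KO 4. No member region was called in all 3 WT and no KO library. Among 57360 regions of the genome 1.08% were KO only and 0.173% WT only.

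The fold enrichment of the strongest H3K27ac peak in a window, a measure added after the coverage was seen, needs no scaling by covered length. Over 36 members it lay between 2.51 and 6.86. Plvap and Bmp2 were higher in all KO libraries, and Egfl7, Sox17, Kdr and Tek were lower in all of them. Among 12536 genes with a peak in all 6 libraries 3.69% were higher and 12.1% lower. Folds were also compared on 1 and the same region for these 6 members alone, so that calls could only be kept or lost. There 5 of the 6 kept genotypes without overlap, and Egfl7 did not. Its strongest WT peaks lay in a region that begins 363 bp outside the gene and runs past the edge of the window, and over that whole region the folds were 6.05, 5.78 and 6.86 in WT against 5.83, 4.96 and 4.11 in KO 2, KO 3 and KO 4, so that KO 2 exceeded WT 2. Tek, the angiopoietin receptor Tie2, had 3.50, 3.58 and 3.64 in WT against 3.23, 3.30 and 3.22 in KO on its region. Bmp2, which sinusoidal cells secrete to induce hepcidin in hepatocytes, had 3.97, 4.01 and 3.98 in WT against 4.25, 4.23 and 4.40 in KO. These folds are the authors' own and rest on each library's own background.

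H3K4me3 was compared between 1 WT and 1 KO library, so nothing below has a replicate check. A member was counted as higher where KO 4 covered at least 1.5 times the bp of WT 2 and at least 200 bp more, and as lower in the mirror case. Peaks lay at 28 of 37 members in WT (75.7%, against 57.5% of all genes) and 33 in KO (89.2%, against 59.6%). Of the 34 with a peak in either, 10 (29.4%) were higher and 8 (23.5%) lower, against 8.91% and 10.5% of 13268 genes. The members were counted more often in both directions than all genes. Short stretches of H3K4me3 passed this rule more readily. The median member had 1241 bp and the median gene 1767.5 bp. Among genes with a mean of up to 500 bp, 4 of 7 members were higher and 1 lower (all genes 52.9% and 18.1%). Between 500 and 1000 bp, 2 of 6 were higher and 1 lower (24.3% and 19.7%). These 13 members therefore hold 6 of the 10 higher calls, at shares near those of all genes of such length. Between 1000 and 2000 bp, 2 of 12 members were higher and 3 lower (all genes 3.4% and 8.76%), and between 2000 and 3000 bp 2 of 6 were higher and 2 lower (1.63% and 8.09%). Above 3000 bp, 0 of 3 were higher and 1 lower (0.234% and 8.84%). The median difference was 195.5 bp over the members and -204 bp over all genes. With bp divided by the covered length of the library, 12 members were higher and 3 lower, and the shares of all genes were not counted.

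**Figure D2:**
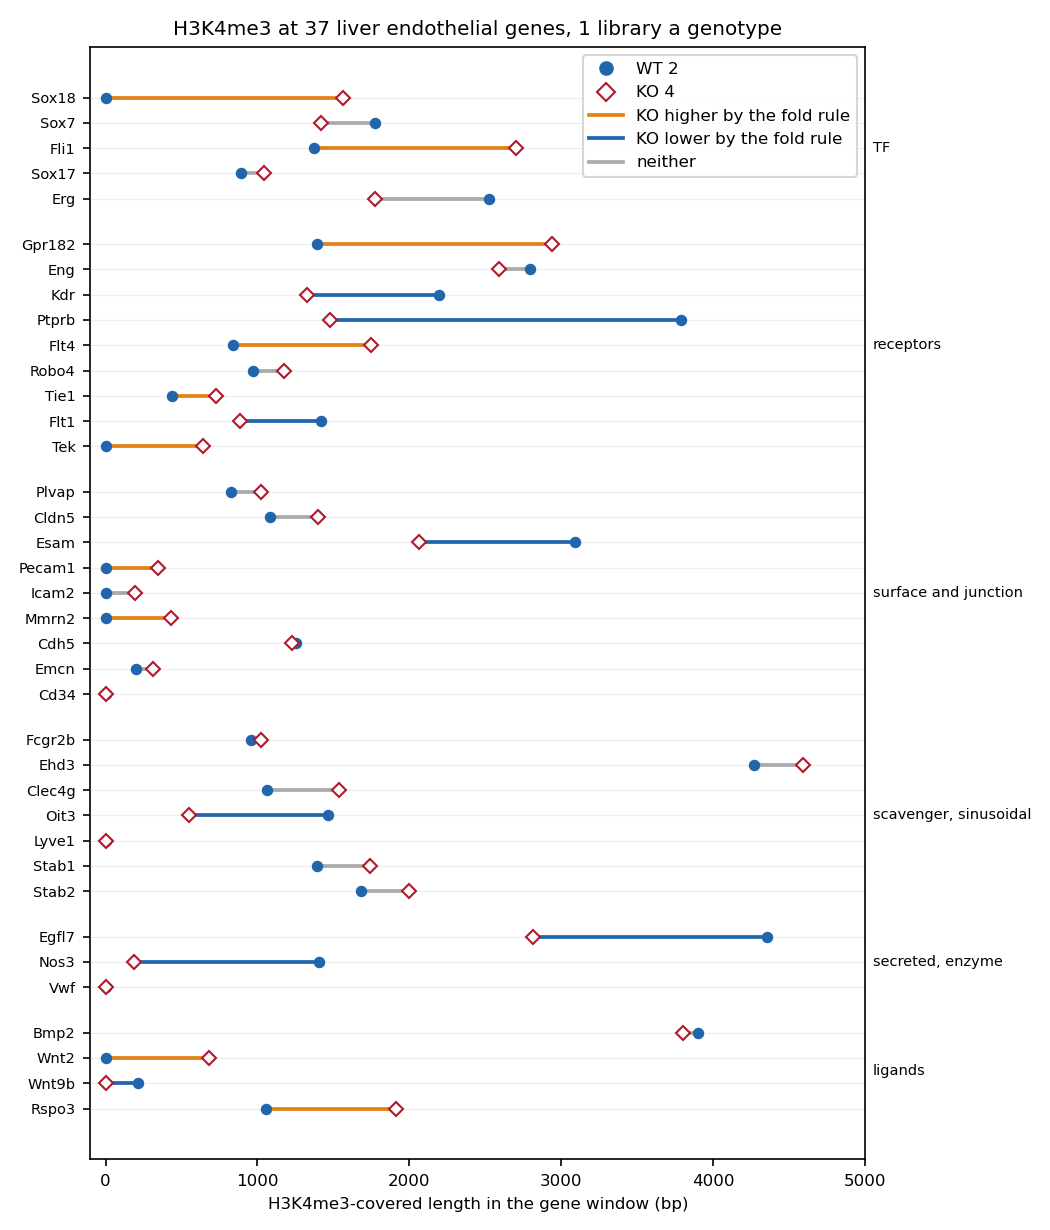
H3K4me3-covered length (x axis, bp in the gene window) in WT 2 (circles) and KO 4 (open diamonds) for each of 37 members grouped by role, joined by a line coloured by the fold rule. Sox18 moves from 0 to 1561 bp and Ptprb from 3786 to 1479 bp, the widest moves in each direction.

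Among transcription factors, 2 of 5 were higher and 0 lower. Sox18, a SOXF factor of vascular and lymphatic development, had no H3K4me3 in WT and 3 peaks totalling 1561 bp in KO. All 3 lay over the gene or within 37 bp of it, and the strongest had a fold of 4.43. Fli1 went from 1369 to 2699 bp, in 2 peaks in each library, and the fold of its strongest peak from 6.32 to 8.46. Fli1 was the 1 member higher in both H3K4me3 and H3K27ac. Erg, the ETS factor needed for endothelial identity, had 2525 bp in WT and 1776 bp in KO and was counted in neither direction. Its H3K4me3 lay inside the gene, at least 96732 bp from either end, and short of the internal promoter printed above: the nearest peak was 539 bp in WT and 322 bp in KO downstream of that start site.

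The receptors were split, with 4 of 9 higher and 3 lower. Gpr182 had 1393 bp in WT and 2941 bp in KO, and its widest peak was 924 bp and 2033 bp. Flt4, the VEGF-C receptor of lymphatic and sinusoidal endothelium, had 840 and 1748 bp. H3K4me3 covered all 300 bp of its promoter window in KO and 213 bp of it in WT, where the peak ended 10 bp before the start site. Tie1, an orphan partner of Tie2, had 435 and 725 bp. Tek had 0 and 641 bp, in 2 KO peaks 421 and 1428 bp inside the start of the gene. Lower in KO were Ptprb, the phosphatase that opposes Tie2, with 3786 and 1479 bp, Kdr with 2198 and 1329 bp, and the VEGF receptor Flt1 with 1415 and 885 bp. The Tie2 receptor and its phosphatase thus stood on opposite sides of the count. Eng (2791 and 2590 bp) and Robo4 (969 and 1173 bp), a receptor that stabilises vessels, were counted in neither direction.

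Among the 9 surface and junction genes, Pecam1 (0 to 347 bp) and Mmrn2 (0 to 433 bp) were higher. Pecam1 is the adhesion molecule CD31, and Mmrn2 is an endothelial matrix protein. Esam, an adhesion molecule of tight junctions, was lower, at 3091 and 2060 bp. Icam2 had 0 and 193 bp, just short of the 200 bp that the rule asks for. Cdh5, the VE-cadherin of endothelial junctions, had 1256 bp in WT and 1226 bp in KO. Plvap, with non-overlapping H3K27ac, had 824 and 1022 bp. In total 6 members (Sox18, Pecam1, Tek, Mmrn2, Icam2 and Wnt2) had an H3K4me3 peak in KO and none in WT, and 1 (Wnt9b) the reverse. Peaks in a single genotype were not counted over all genes, of which 57.5% had a peak in WT and 59.6% in KO.

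Of the 6 scavenger and sinusoidal genes with a peak, 0 were higher and 1 lower. Oit3, a secreted protein with a zona pellucida domain that marks sinusoidal cells, had 1462 and 550 bp. Fcgr2b had 955 and 1026 bp, and Stab2 1682 and 1995 bp. Both secreted or enzyme products with a peak were lower. Egfl7 had 4355 bp in WT and 2813 bp in KO, and H3K4me3 covered the start site of its middle promoter, printed above, in WT alone. Nos3, the endothelial nitric oxide synthase, had 1404 and 187 bp. Of its WT length, 686 bp lay at the gene end that held the KO peak, and 718 bp near the other end. The Nos3 window also holds part of Atg9b. Of the angiocrine ligands, which zonate the hepatocytes through Wnt signalling, Wnt2 (0 and 679 bp) and Rspo3 (1053 and 1913 bp) were higher, and Wnt9b (211 and 0 bp) was lower. Bmp2 had 3900 and 3798 bp. By this rule the 3 pericentral Wnt activators were not of 1 direction. The lower call rests on 1 Wnt9b peak of 211 bp, just past the 200 bp asked for. That peak lay inside the gene, 7753 bp from its nearer end.

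The H3K4me3 and H3K27ac differences showed no close relation across the members. Over the 34 members with H3K4me3, Pearson's r between the H3K4me3 difference and the scaled H3K27ac difference of the same-numbered libraries (KO 4 minus WT 2) was -0.06 and Spearman's rho was -0.001. With the other H3K27ac libraries (KO 2 and KO 3 minus WT 1 and WT 4) r was 0.14 and rho 0.12. Without Gpr182, whose full window is covered in every library, r was 0.11 and 0.19 in these 2 comparisons over 33 members. Over all 12920 genes with both marks the 2 Pearson values were 0.40 and 0.24. These correlations are across genes of shared libraries, and genes are not independent replicates. Of the 10 members with higher H3K4me3, 4 had higher scaled H3K27ac in KO 4 than in WT 2 (40%), where 68.8% of such genes did over the genome. In the other libraries 4 of the 10 were higher too, and 49.2% over the genome. Gpr182 is among the 6 others, and without it 4 of 9 were higher in either comparison (44.4%). Of the 8 members with lower H3K4me3, 5 had lower H3K27ac in either comparison. Over the genome, 936 and 852 of 1395 such genes did in the 2 comparisons, a similar share. Unscaled, 9 of the 10 and 8 of the 8 had more H3K27ac in KO 4 than in WT 2. These shares were 79.1% and 68.3% over the genome.

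**Figure D3:**
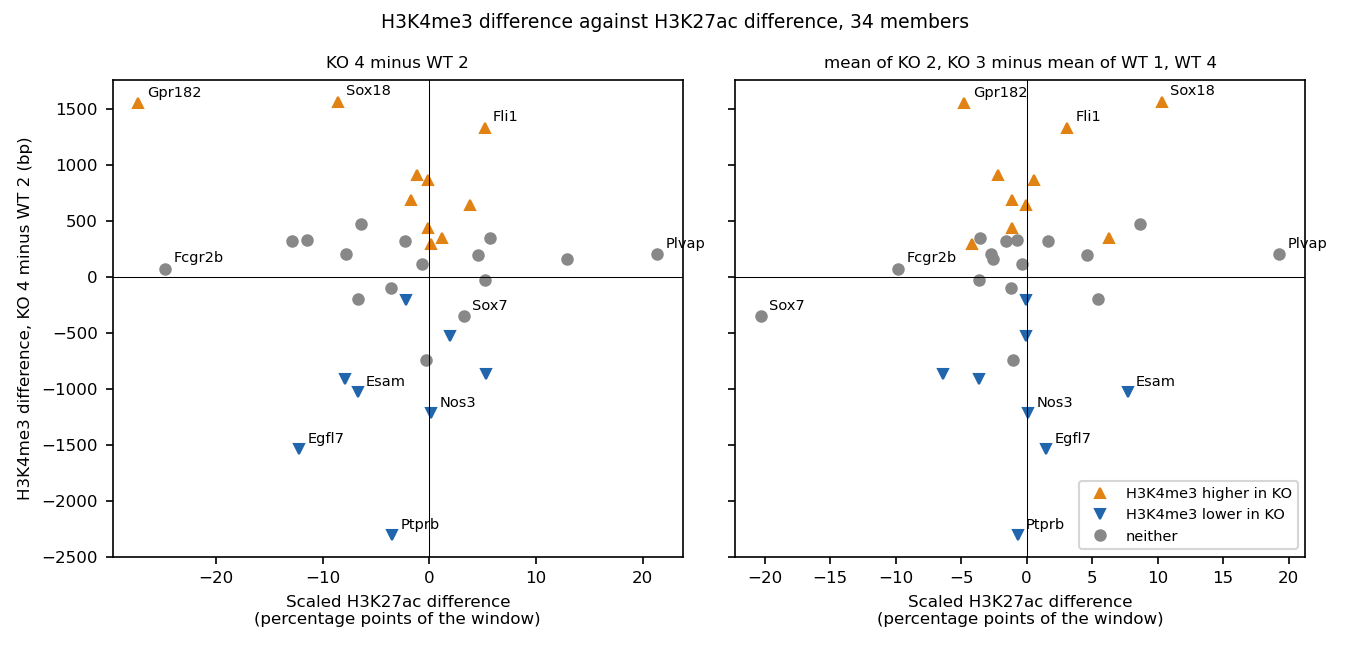
H3K4me3 difference in bp (y axis, KO 4 minus WT 2) against the scaled H3K27ac difference in percentage points (x axis) for 34 members, with KO 4 minus WT 2 on the left and the other libraries on the right. Triangles pointing up and down are members higher and lower by the H3K4me3 rule, and both kinds lie on each side of the vertical line at 0.

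The members at the edges of this plot show how the marks differed. Gpr182 gained 1548 bp of H3K4me3 while its H3K27ac covered the full window in every library. Sox18 gained 1561 bp, and its scaled H3K27ac was lower by 8.59 points in KO 4 than in WT 2 but higher by 10.3 points in the other libraries. Fli1 was higher in both marks in both comparisons. Plvap had the highest H3K27ac differences of the members, 21.4 and 19.3 points, with 198 bp more H3K4me3. All 70 WT and all 75 KO H3K4me3 peaks of the members overlapped H3K27ac in at least 1 library, and 60 and 64 of them in all 6.

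H3K27me3 lay at 12 of 37 members, 11 in WT156 (29.7%, against 12.5% of all genes) and 10 in KO150 (27%, against 13.7%), again with 1 library a genotype. By the fold rule 6 of the 12 were higher and 3 lower (50% and 25%), against 50.4% and 19.8% of 3538 genes. These shares are close to those of all genes. With bp divided by the covered length of the library, 3 were higher and 4 lower, and the shares of all genes were not counted. None of 7 scavenger genes and none of 20 hepatocyte markers carried the mark, while 4 of 5 transcription factors did. Each stretch was short, at 125 to 1867 bp.

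Sox18 had 0 bp in WT and 1131 bp in KO, in 2 peaks 515 and 1702 bp from the gene. It was thus the 1 member with both H3K4me3 and H3K27me3 in KO and neither in WT. Fli1 had 135 and 442 bp, Kdr 240 and 771 bp, Rspo3 392 and 1043 bp, Flt4 788 and 1222 bp, and Wnt9b 2058 and 3387 bp. Lower in KO were Bmp2 (693 and 0 bp), Flt1 (468 and 125 bp) and Vwf (214 and 0 bp). Plvap (740 and 878 bp), Sox17 (701 and 905 bp) and Erg (2865 and 2536 bp) were counted in neither direction.

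Many of these stretches coincided with active marks. At Flt4 all 788 bp in WT lay under H3K27ac of each WT library, and in KO 688 of 1222 bp lay under H3K4me3. At Rspo3, which encodes a Wnt amplifier of central vein endothelium, 303 of 392 bp in WT and 761 of 1043 bp in KO lay under H3K4me3. At Bmp2 the full 693 bp of WT lay under both active marks. In bulk liver this does not show that 2 marks share a molecule or a cell. Erg was different, since none of its H3K27me3 bp in either library lay under H3K27ac or H3K4me3. Its peaks came closest to the gene's ends at 84 bp in WT and 151 bp in KO. The start sites of its 2 other promoter windows had no H3K27ac in any library, and that of the internal promoter had it in all 6. Of all member H3K27me3 peaks, 9 of 20 in WT and 13 of 24 in KO overlapped H3K27ac in at least 1 library.

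PPARg peaks lay at 17 of the 37 members, at 9 and 6 in WT 2 and WT 4 (24.3% and 16.2%) and at 15 and 11 in KO 7 and KO 8 (40.5% and 29.7%). Of all genes, 25.5% and 25.8% had a peak in these WT libraries and 36.7% and 35.5% in the KO ones. With coverage scaled within each library, 3 of 17 were higher in both KO libraries (17.6%) and 3 lower (17.6%), against 31.5% and 20.4% of 9023 genes. The smallest p that 2 against 2 libraries can give in an exact permutation test is 0.33, so none is given. Without scaling 9 were higher and 0 lower, where PPARg covered 2.63 times as much of the genome in KO. The unscaled shares of all genes were not counted. Here too a left-out library can only keep or raise the counts. Members higher were 6 without WT 2 (35.3%, against 40.7% of all genes), 6 without KO 7 (35.3% against 42.8%) and 8 without KO 8 (47.1% against 45%). Without WT 4, the library of the other kit, 6 were lower (35.3% against 32.2%). WT 4 and the other 3 lists also differ in their lowest deposited −log10 q, 1.31 against 3.00 to 3.01.

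Stab2 carried the strongest PPARg peak of the members. In WT 2 and WT 4 PPARg covered 3417 and 2827 bp of its window, against 6387 and 3987 bp for KO 7 and KO 8. The fold of its strongest peak was 18.6 and 14.7 in those WT libraries, against 59.1 and 42.7 in the KO ones. Gpr182 had 2604 and 2109 bp in the WT libraries against 3579 and 3580 bp in the KO ones, with folds of 13.8 and 14.2 against 28.1 and 24.2. Lyve1, a hyaluronan receptor of sinusoidal and lymphatic endothelium, had 817 and 262 bp in the WT libraries against 1330 and 2040 bp in the KO ones. In all 3 both KO values were above both WT values in bp, while PPARg covered 2.63 times as much of the genome in KO. After scaling, Stab2 and Gpr182 were lower in KO.

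Of 35 PPARg regions in the member windows, 8 were called in all 4 libraries and 6 (17.1%) in both KO and neither WT library, against 17.9% of 33952 regions. No member region was called in both WT and neither KO library, against 1.05%. The 6 lay at Stab2 (2 regions), Pecam1, Lyve1, Vwf and Icam2. At Vwf the region chr6:125574855-125575312 (mm10) lay inside an H3K27ac region called in all 6 libraries. Its folds in KO 7 and KO 8 were 8.02 and 5.05. The strongest of the 6, at Stab2 (chr10:86923625-86924222), had folds of 17.0 and 13.5.

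CTCF calls at the endothelial genes followed the shares of the genome. The windows of 24 members held 45 CTCF sites, of which 23 were called in all 4 libraries (51.1%, against 53.1% of all sites), 3 in both WT and neither KO library (6.67%, against 9.87% of all sites) and 0 in both KO and neither WT library (against 0.167%). Vwf held 4 of the 23 retained sites, all inside the gene. The site at chr6:125620912-125623064 had folds of 13.1 and 12.03 in the WT libraries against 8.14 and 6.61 in the KO ones. The site at chr6:125600061-125602091 had 13.0 and 12.9 against 11.3 and 13.6. Lower folds in both KO libraries were not particular to Vwf, where every site but chr6:125600061-125602091 had them. Most retained member sites did. They lay at Plvap, Gpr182, Cdh5, Stab2, Clec4g, Esam, Robo4, Nos3, Icam2 and Cd34, with a site each at Flt4 and Wnt9b. The folds overlapped at Flt1, Mmrn2, Bmp2 and Ptprb and at the other retained sites of Flt4 and Wnt9b. No retained member site had higher folds in both KO libraries. The share over all retained sites of the genome was not counted.

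The 3 sites called in WT alone were weak. Erg lost a call at chr16:95570480-95570952 inside the gene, with folds of 5.68 and 5.09 in WT164 and WT165. Esam lost one at chr9:37526840-37527301, 788 bp outside the gene, with folds of 5.86 and 4.37. Mmrn2 lost one at chr14:34372526-34373017, 2487 bp outside, with folds of 6.19 and 6.65. Each of Esam and Mmrn2 kept another site in all 4 libraries. With peaks of −log10 q of at least 10 alone, 0 of the WT-only sites were left. Without WT164, WT165, KO160 or KO163 the WT-only sites were 6, 9, 5 and 6, since fewer libraries then have to match.

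Other genes of endothelial signalling were taken from a list of 76. H3K27ac was present at 70, of which 9 were higher without overlap (12.9%, against 7.46% of all genes) and 3 lower (4.29%, against 8.67%). Plxnd1, a semaphorin receptor, had 36.1%, 33.7% and 36.8% in WT against 38.7%, 51.9% and 48.5% in KO. The ETS factor Ets1 had 49.0%, 51.9% and 42.5% in WT against 59.9%, 59.8% and 54.5% in KO, and its relative Ets2 had 24.3%, 28.7% and 25.4% against 37.4%, 39.3% and 29.7%. Dnase1l3, a nuclease made by sinusoidal cells, had 63.3%, 59.2% and 63.8% in WT against 50.4%, 47.5% and 52.2% in KO. For H3K4me3, 14 of 68 were higher (20.6%, against 8.91% of all genes) and 3 lower (4.41%, against 10.5%). The 4 widest moves were 2 gains and 2 losses. Bmp6, the other sinusoidal inducer of hepcidin, had 654 and 2301 bp, and Thbd, the receptor of thrombin on endothelium, had 857 and 1955 bp. S1pr1, the receptor of sphingosine 1-phosphate, had 3150 and 2033 bp, and the transcription factor Lyl1 had 2350 and 1407 bp.

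Markers of other liver cells moved in the same libraries. Of 17 stellate cell markers with H3K27ac, 7 were higher without overlap and 0 lower, against 7.46% and 8.67% of all genes. The mean scaled coverage of the stellate list was 10.4% to 14.9% in WT and 15.7% to 18.0% in KO. Des, the muscle-type filament of stellate cells, had 7.1%, 2.8% and 0% in WT against 22.0%, 10.2% and 13.8% in KO. Of 20 hepatocyte markers 0 were higher and 5 lower, with a scaled list mean of 63.7% to 74.5% in WT and 47.4% to 66.4% in KO. KO 4 was lowest only after scaling. Unscaled, the hepatocyte mean was 58.8%, 65.7% and 63.5% in WT 1, WT 2 and WT 4. It was 57.5%, 58.4% and 64.9% in KO 2, KO 3 and KO 4. Of 16 Kupffer cell markers with H3K27ac 1 was lower, and the list mean was 6.47% to 18.9% in WT and 7.89% to 16.2% in KO. Of 8 cholangiocyte markers with H3K27ac 3 were higher, and of 9 lymphocyte markers 1 was. The markers at 0 in all 6 libraries were Timp1 of the stellate list, Vsig4 and Marco of the Kupffer list, 6 of 14 cholangiocyte markers (Krt19, Krt7 and Epcam among them) and 7 of 16 lymphocyte markers. For H3K4me3, 8 of 12 stellate markers were higher and 0 lower, and 0 of 20 hepatocyte markers were higher and 7 lower. Over all genes 8.91% were higher and 10.5% lower. Of cholangiocyte markers 4 of 7 were higher and 1 lower, and of lymphocyte markers 2 of 6 higher and 1 lower. Of Kupffer cell markers 0 of 6 were higher and 2 lower. Short stretches pass this rule more readily, and these lists were not split by length. The part of these cells in the endothelial values was not tested.

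**Figure D4:**
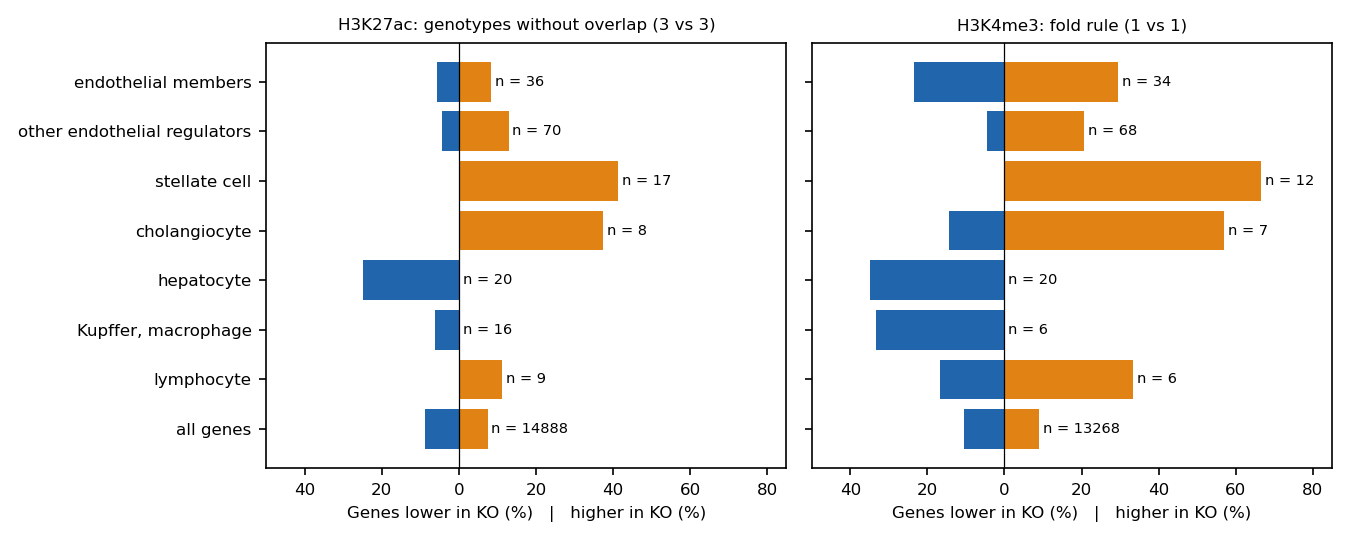
Share of genes counted as higher (to the right, orange) or lower (to the left, blue) in KO for each gene list, for H3K27ac (left) and H3K4me3 (right), with the number of genes that have a peak beside each bar. For H3K27ac the endothelial bar (8.33% and 5.56%) has about the size of that of all genes (7.46% and 8.67%), and the stellate bar reaches 41.2%.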

How the data were processed

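ChIP-seq peak lists of 18 mouse liver libraries were used, called on build mm10 and for which the submitters' processing notes name MACS2 2.1.2 along with BWA 0.7.12, deepTools 3.1.3 and Picard 1.77. The control used in peak calling is not given in the sources used here. Each deposited peak has a fold enrichment, which is a ratio over the authors' background, and a −log10 q. The deposited score and −log10 p were not used beyond checks. Only autosomal, X and Y peaks entered, and intervals listed once per summit were collapsed. The lowest deposited −log10 q was near 1 for H3K27ac and H3K27me3.

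The 37 members and all other lists were chosen with earlier results of these data known. Gene spans were RefSeq (GRCm38.p6), with 5 kb each side. Coverage was computed as bp and as percent of the window, scaled within a library by its total covered length for H3K27ac and PPARg. H3K27ac (3 against 3) was fitted with limma 3.58.1 in R 4.3.3 over 14888 genes, two-sided, with Benjamini-Hochberg adjustment at 0.05, and the script was tested on simulated data. The smallest exact permutation p for 3 against 3 is 0.1. The libraries carry numbers, but the labels do not say that they are separate animals, so p-values measure the spread between these libraries. Regions of a target were merged by an overlap of 1 bp. With 1 library a genotype (H3K4me3, H3K27me3) no test was run.

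By the rule for named genes, values are given for members called in H3K27ac coverage or H3K4me3, members with H3K27me3 and members with a lost CTCF site. Other members are examples of no call. PPARg calls were not part of that rule, and PPARg coverage is given for some members only. Of the other lists, at most 4 genes a list and mark were to be named, by size of change. The fold of the strongest peak, and the genes named for it, were added after values were seen. Alternatives were no scaling, equal list lengths, percentiles, stricter peak thresholds, windows of 1, 10 or 20 kb, a filter on low values, a log2 scale with a pseudocount of 100 bp, a fold of 2, an overlap of 50%, and leaving out each library.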

Additional observations from a re-analysis of the deposited data

How the results depend on the processing

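The counts of members changed with the covered length allowed for each list. Outside the main settings, shares of all genes were counted only with a library of H3K27ac or PPARg left out. The other member counts below therefore have no such share beside them. For H3K27ac, members lower in KO numbered 0 without scaling and 1 with lists of equal covered length, with percentiles or with the stricter peak threshold. Leaving out each library, which by the rule of no overlap can only keep or raise a count, gave 3 to 5 higher and 2 to 7 lower. For H3K4me3, members lower numbered 3 per total covered length and 4 at a fold of 2. For H3K27me3, members higher numbered 3 per total covered length, and 2 higher and 1 lower passed with the stricter peak threshold. For PPARg, members higher and lower numbered 9 and 0 without scaling, 6 and 1 with equal numbers of peaks, and lower 1 with the stricter threshold, and leaving out each library gave 4 to 8 and 3 to 6. For CTCF, WT-only member sites numbered 1 with equal numbers of peaks (KO-only 1), 0 with the stricter threshold and 7 within 20 kb (51 retained), and leaving out each library gave 5 to 9 WT-only, 0 to 2 KO-only and 23 to 26 retained sites. Genes past the adjusted threshold of limma for H3K27ac numbered 42 higher and 11 lower with percentiles and 28 and 3 on the log2 scale, with no member among them, and 0 to 0 when each library was left out. Leaving out Gpr182, chosen after seeing the data, moved the Pearson's r of H3K4me3 and H3K27ac differences from -0.06 to 0.11. The cause was not tested.

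Of the 5 members without overlap in H3K27ac, Stab2 changed sign without scaling (0.51), where the median of all genes was 0.92 points. The other 4 kept their direction under each alternative run, although Vwf did not pass the filter on low values. Leaving out a library could not turn a direction, since every KO value lay beyond every WT value. Fcgr2b fell to -0.91 with lists of equal covered length and to -0.24 with percentiles. Replicate numbers 2 and 4 occur in both genotypes. The correlations of deviations of same-numbered libraries were -0.24 and -0.33, so the numbers gave no sign of pairing. With the replicate number as a block, 0 genes were higher and 0 lower (lowest adjusted p = 0.857 in limma). Peak lists hold no read depth, so a stretch just under a caller's threshold in 1 library cannot be told from one without signal.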
